A study of Mus musculus with 24 samples.

Results

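A set of 10 genes of epithelial cells, 6 keratins and 4 junction genes, was followed through adipose tissue of mice with a changed tyrosine of STAT5B. They are Krt5, Krt14, Krt7, Krt8, Krt18, Krt19, Epcam, Cldn3, Cldn4 and Cdh1, chosen by symbol, and they make up 10 of the 24421 gene symbols counted. The tissue came from C57BL/6 mice at 2 months of age and was sequenced as total RNA. Mice were wild type (WT) or carried STAT5B-Y665F or STAT5B-Y665H, in which that tyrosine of the signalling transcription factor is replaced by phenylalanine or histidine. Each of the 6 groups, WT, Y665F and Y665H in males and in females, has 4 libraries. The labels give neither a fat depot nor the zygosity of the mutations, and they do not say that libraries came from separate animals, so p-values measure the spread between these libraries. The title of the series names liver, whereas all 24 libraries are labelled adipose.

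Keratins form filaments from pairs of a type I and a type II protein. Krt5 (type II) pairs with Krt14 (type I) in the basal cells of layered epithelia, and Krt8 (type II) pairs with Krt18 (type I) in simple epithelia, where Krt7 and Krt19 are further partners. Epcam is an adhesion protein of the lateral membrane, Cdh1 encodes E-cadherin of the adherens junction, and Cldn3 and Cldn4 are claudins of the tight junction. Adipocytes are not epithelial, but fat depots border on epithelial organs and are covered by mesothelium, a lining that makes simple keratins.

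The 10 genes include 2 pairs of neighbours, and their upstream sequences are shown. The genes of each pair varied together across the male libraries. So did Cdh1 and Epcam, which lie on different chromosomes (correlations are given below). Whether nearness on the chromosome plays a part was not tested. Krt8 (chr15:101996711-102004342, minus strand) lies 23873 bases from Krt18 (chr15:102028216-102032026, plus strand). Cldn4 (chr5:134945123-134946934, minus strand) lies 39279 bases from Cldn3 (chr5:134986214-134987476, plus strand). Krt5 (chr15:101707069-101712905, minus strand) and Krt7 (chr15:101412403-101427806, plus strand) stand on the same chromosome as Krt8. Krt14 (chr11:100203162-100207510) and Krt19 (chr11:100140810-100145926) are both on the minus strand of chromosome 11. Epcam (chr17:87635979-87651127) and Cdh1 (chr8:106603350-106670247) are on plus strands. Coordinates are RefSeq gene spans on GRCm38.p6, exons and introns together. The sequences below are the 250 bases before the RefSeq start of each gene, read 5′ to 3′ on its own strand, at chr5:134946935-134947184 for Cldn4, chr5:134985964-134986213 for Cldn3, chr15:102004343-102004592 for Krt8 and chr15:102027966-102028215 for Krt18. Capitals mark matches to the 4 motifs searched.
Cldn4: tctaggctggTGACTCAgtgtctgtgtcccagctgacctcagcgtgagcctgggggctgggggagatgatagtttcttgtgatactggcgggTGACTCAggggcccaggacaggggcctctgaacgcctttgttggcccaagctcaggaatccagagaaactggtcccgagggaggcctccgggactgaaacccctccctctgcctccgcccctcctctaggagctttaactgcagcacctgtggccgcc
Cldn3: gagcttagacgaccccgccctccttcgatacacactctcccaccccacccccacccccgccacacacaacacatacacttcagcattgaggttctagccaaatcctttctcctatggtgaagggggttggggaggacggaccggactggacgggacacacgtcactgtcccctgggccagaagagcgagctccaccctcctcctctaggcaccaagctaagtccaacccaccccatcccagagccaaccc
Krt8: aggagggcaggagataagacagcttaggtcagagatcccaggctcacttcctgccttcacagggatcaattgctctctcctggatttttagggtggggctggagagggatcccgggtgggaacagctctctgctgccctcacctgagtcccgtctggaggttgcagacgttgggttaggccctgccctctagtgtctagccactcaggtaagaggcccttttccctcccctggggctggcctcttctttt
Krt18: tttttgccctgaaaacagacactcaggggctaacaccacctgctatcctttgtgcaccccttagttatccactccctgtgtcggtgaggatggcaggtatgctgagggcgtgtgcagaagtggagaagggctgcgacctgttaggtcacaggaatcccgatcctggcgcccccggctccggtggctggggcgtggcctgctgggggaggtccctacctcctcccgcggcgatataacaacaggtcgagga

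The motifs, searched on both strands, were the STAT palindrome TTCNNNGAA, the AP-1 site TGANTCA, the Grainyhead site AACCGGTT and the TATA box TATAAA. Of the 8 of the 10 genes with an entry in the RefSeq promoter table, Cldn4 alone held a match in its entry, with 2 AP-1 matches that begin 240 and 158 bases before its start. Among all 32851 upstream sequences of this length, 7.02% held the STAT palindrome, 6.75% the AP-1 site, 0.116% the Grainyhead site and 12.4% the TATA box. The Krt14 entry lies before another start, inside the Krt14 span given above. These are matches of letters within 250 bases and do not show binding.

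Depth ran from 20.98 to 41.3 M gene counts per library (M, 1000000 counts). Levels are counts per 1000000 gene counts (CPM). Where a library has no count of a gene, its level could still be as high as 3 counts, which is 0.0726 to 0.143 CPM depending on the library (counting error only). Of the 24 libraries, 2 stood apart. WT male 2 was the highest male library for 10 of 10 genes, with a summed level of 1545 CPM where the other 11 males had 80.4 to 827 CPM. Y665F female 3 was the highest female library for 8 of 10 genes, with a summed level of 1990 CPM where the other 11 females had 77.3 to 381 CPM. The adipocyte list (8 genes) had its lowest summed level of each sex in these same libraries, 5795 CPM in WT male 2 and 9898 CPM in Y665F female 3. The main results that rest on either library are given with and without it. In bulk tissue, fewer cells of a type and less RNA per cell cannot be told apart.

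The label of this gene set speaks of luminal and basal epithelium. Of 12 genes listed for mammary luminal cells, the milk genes Csn2, Csn3, Wap, Lalba and Wfdc18 were under 1 CPM in all 24 libraries. Pgr, the progesterone receptor gene, was at 3.85 CPM or more in every female library, with 103 CPM in Y665F female 3. It did not exceed 0.930 CPM in any male. Others were higher in single libraries, with Foxa1 at 49.96 CPM in Y665F female 3, and Cited1 at 49.5 CPM and Elf5 at 15.0 CPM in Y665F male 4. Aldh1a3 was at 15.1 CPM or more in every library. As for the basal pair, Krt14 did not exceed 1.85 CPM in any female library while Krt5 reached 393 CPM. The 10 genes are described by symbol here, and no cell type is assigned to them.

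Krt5 ranged from 0 to 393 CPM over the 24 libraries. In males it was 0, 71.9, 21.3 and 12.2 CPM in WT 1 to 4, 3.63, 0, 0 and 14.0 CPM in Y665F and 0.0330, 0.0257, 8.89 and 0.508 CPM in Y665H. In females it was 2.14, 27.1, 0.323 and 0 CPM in WT, 0.147, 16.2, 393 and 53.5 CPM in Y665F and 1.01, 15.4, 0 and 28.5 CPM in Y665H. Every group held at least 1 library near or at 0 beside a high one, and all neighbouring groups overlapped. Krt14, its partner, was 3.48, 46.2, 24.0 and 8.22 CPM in WT males, 5.07, 3.79, 1.53 and 4.97 CPM in Y665F males and 0.824, 15.7, 5.89 and 2.10 CPM in Y665H males. In females it was 1.11, 0.726, 0.323 and 1.85 CPM in WT, 0.476, 1.21, 1.44 and 0.475 CPM in Y665F and 0.542, 0.933, 0.560 and 1.36 CPM in Y665H. Krt14 was thus low in every female library, including Y665F female 3, where Krt5 had 273 counts for each count of Krt14. Among the 7 males with a ratio, Krt5 had 0.241 to 2.82 counts for each count of Krt14.

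Krt8 and Krt18, the simple pair, were detected in all libraries. Krt8 was 17.1, 241, 151 and 79.4 CPM in WT males, 24.7, 11.5, 24.6 and 123 CPM in Y665F males and 54.9, 24.2, 76.7 and 55.7 CPM in Y665H males. In females Krt8 was 28.0, 35.5, 9.16 and 14.9 CPM in WT, 19.9, 28.7, 268 and 48.2 CPM in Y665F and 12.0, 18.7, 11.6 and 30.5 CPM in Y665H. WT males 2, 3 and 4 and Y665F male 4 were high, and WT male 1 was as low as most Y665F males. Krt18 was 8.43, 249.7, 142 and 62.1 CPM in WT males, 18.6, 6.38, 10.9 and 63.4 CPM in Y665F males and 28.5, 11.7, 58.6 and 27.4 CPM in Y665H males. In females Krt18 was 9.44, 25.9, 4.57 and 4.86 CPM in WT, 7.77, 16.8, 265 and 42.1 CPM in Y665F and 5.27, 11.3, 7.12 and 27.7 CPM in Y665H. The same libraries were high as for Krt8, and the count ratio of Krt8 to Krt18 kept within 0.964 to 2.27 in males and 1.01 to 3.08 in females.

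Krt7, a type II keratin of ducts and of urothelium and mesothelium, was 13.5, 48.0, 27.7 and 18.1 CPM in WT males, 17.4, 15.4, 8.15 and 13.1 CPM in Y665F males and 16.7, 27.0, 20.7 and 15.7 CPM in Y665H males. In females Krt7 was 36.4, 49.4, 17.8 and 21.7 CPM in WT, 35.0, 58.8, 531 and 98.9 CPM in Y665F and 20.7, 34.6, 24.0 and 51.3 CPM in Y665H. It exceeded Krt8 in counts in all 12 females, by 1.30 to 2.07 times, while the ratio in males was 0.107 to 1.34. The annotated exons of Krt7 are longer, at 4094 bases against 1958 for Krt8. Per kilobase, Krt8 lay above Krt7 in every female library (medians 12.2 and 8.72 CPM per kilobase). Krt19, a type I keratin without a tail domain, was 38.8, 157, 77.0 and 47.6 CPM in WT males, 37.2, 39.7, 27.3 and 127 CPM in Y665F males and 48.1, 61.3, 40.7 and 55.9 CPM in Y665H males. In females Krt19 was 98.7, 67.7, 43.5 and 60.2 CPM in WT, 72.1, 106, 283 and 99.9 CPM in Y665F and 61.3, 74.6, 84.0 and 87.0 CPM in Y665H. No library fell under 27.3 CPM, and its highest level was 10.4 times its lowest, against 65.2 times for Krt7. Per kilobase of annotated exon, Krt19 had the highest level of the 10 genes in 8 of 12 male and 11 of 12 female libraries. On that scale its median was 30.4 CPM per kilobase in males and 50.3 in females, and Krt8 followed with medians of 28.2 and 12.2.

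Epcam was 3.80, 188, 78.5 and 51.7 CPM in WT males, 10.2, 0.753, 11.2 and 64.9 CPM in Y665F males and 24.4, 3.42, 50.8 and 22.4 CPM in Y665H males. In females Epcam was 1.03, 1.74, 0.726 and 0.434 CPM in WT, 0.769, 1.63, 19.8 and 4.58 CPM in Y665F and 0.749, 1.10, 0.839 and 4.06 CPM in Y665H. Of the 12 females, 9 lay between 0.434 and 1.74 CPM, and Y665F females 3 and 4 and Y665H female 4 lay higher. Cdh1 was 2.94, 231, 146 and 68.1 CPM in WT males, 10.8, 0.954, 5.48 and 69.4 CPM in Y665F males and 19.0, 2.72, 62.3 and 18.5 CPM in Y665H males. In females Cdh1 was 0.895, 11.8, 0.564 and 0.289 CPM in WT, 0.220, 5.29, 145 and 20.9 CPM in Y665F and 0.387, 4.47, 0.218 and 11.1 CPM in Y665H. For Cdh1, high and low libraries occurred within every group, and the groups overlapped. For Epcam, groups next to each other by median overlapped, but all WT males lay above all WT females.

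Cldn3 was 2.99, 219, 139 and 60.2 CPM in WT males, 19.1, 1.98, 2.53 and 63.1 CPM in Y665F males and 6.56, 4.14, 36.5 and 8.66 CPM in Y665H males. In females Cldn3 was 0.244, 0.363, 0.188 and 0.463 CPM in WT, 0.440, 0.325, 0.412 and 0.238 CPM in Y665F and 0.284, 0.0823, 0.155 and 0.540 CPM in Y665H. It was the 1 gene of the 10 whose 12 male and 12 female libraries did not overlap, as was the case for 1.73% of 17157 genes with higher levels in males. Exons of Cldn3 share bases with the antisense gene Wbscr25, and the strand setting of the counting is not given in the sources used here. Cldn4 was 0.144, 93.5, 20.4 and 3.59 CPM in WT males, 1.16, 0, 0.286 and 33.2 CPM in Y665F males and 1.38, 0.257, 2.15 and 0.460 CPM in Y665H males. In females Cldn4 was 0.624, 6.79, 0.161 and 0 CPM in WT, 0, 3.67, 83.0 and 12.4 CPM in Y665F and 0.310, 3.13, 0 and 5.99 CPM in Y665H. Unlike Cldn3, it reached 83.0 CPM in a female library, where Cldn4 had 201.5 counts for each count of Cldn3. In males that ratio did not exceed 0.526.

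**Figure D1:**
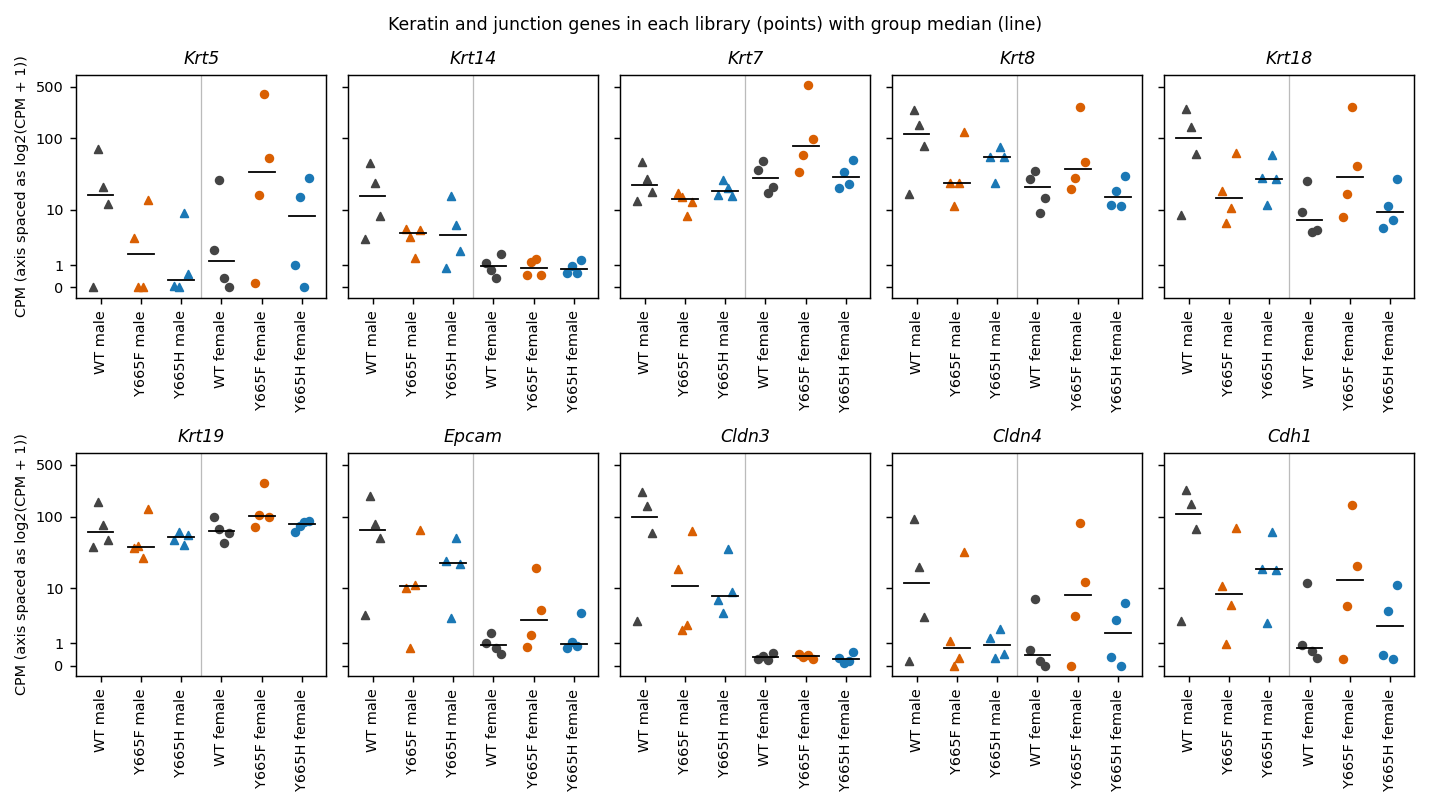
Level of each of the 10 genes in CPM (vertical axis, spaced as log2(CPM + 1)) in the 6 groups, with 1 point per library and a line at the group median. Cldn3 lies at 0.540 CPM or less in every female library, and single libraries such as Y665F female 3 stand far above their group for most other genes.

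The 2 pairs of partners and the 2 pairs of junction genes were compared across the 12 libraries of each sex, all genotypes together, on log2(CPM + 1). Over the 8 relations, p-values come from 100000 permutations and are adjusted by Benjamini-Hochberg. Krt8 and Krt18 correlated with Pearson r = 0.980 in males and 0.969 in females (rho 0.986 and 0.944, permutation p = 1e-05 for each r, the smallest possible, adjusted 2e-05). Without the 2 libraries farthest from the median, r was 0.969 and 0.906. Cdh1 and Epcam correlated with r = 0.984 in males and 0.944 in females (rho 0.993 and 0.874, permutation p = 1e-05 for each r, adjusted 2e-05), and r was 0.981 and 0.851 without the 2 farthest libraries.
Krt5 and Krt14 correlated in males with r = 0.735 (rho 0.683, permutation p = 0.00691, adjusted 0.00921), a relation that rested on WT males 2 and 3, since r was 0.396 without them. In females r was 0.321 (rho 0.200, permutation p = 0.308, adjusted 0.352) and 0.334 without the 2 farthest libraries. Cldn4 and Cldn3 correlated in males with r = 0.906 (rho 0.951, permutation p = 2e-05, adjusted 3.2e-05), and 0.922 without WT male 2 and Y665F male 4. In females r was 0.217 (rho 0.0986, permutation p = 0.499, adjusted 0.499) and 0.176 without the 2 farthest libraries. The difference of r between the sexes was not tested.

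**Figure D2:**
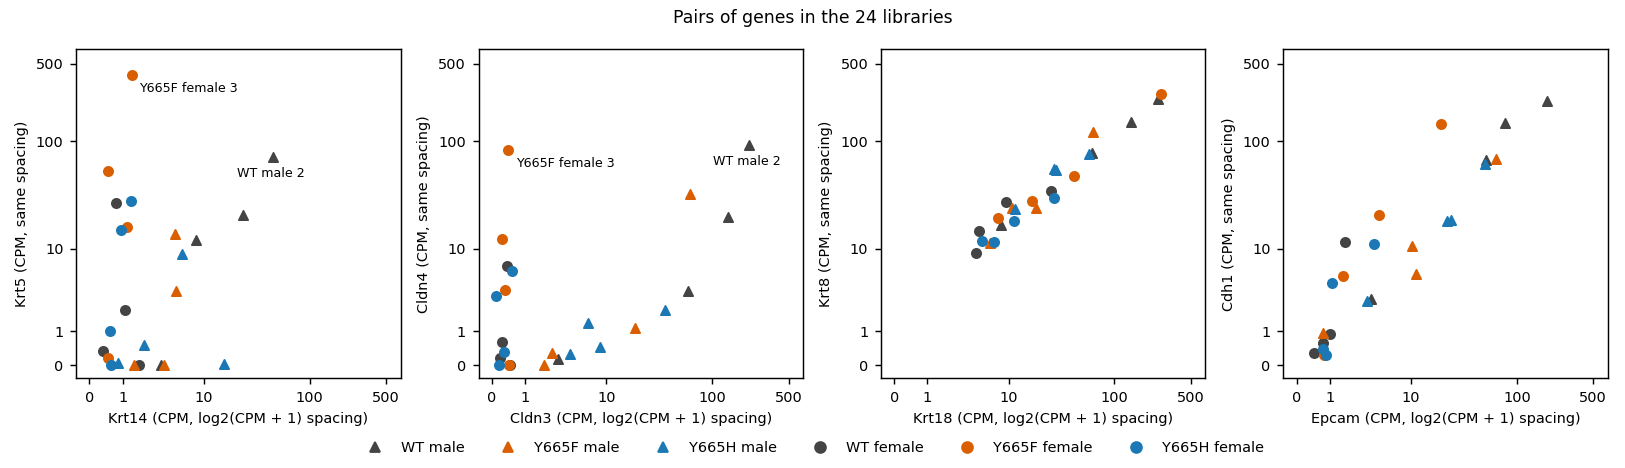
Levels of 4 gene pairs in the 24 libraries (both axes in CPM, spaced as log2(CPM + 1), triangles for males and circles for females, coloured by genotype). Krt8 follows Krt18 and Cdh1 follows Epcam in both sexes, whereas Krt5 and Cldn4 vary in females at Krt14 levels of at most 1.85 CPM and Cldn3 levels of at most 0.540 CPM.

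Marker genes of other organs were high in some of the libraries where the keratin and junction genes were high. Since the labels give no fat depot, whether these organs lay next to the sampled fat is not known. In males, 12 of 12 epididymis genes (such as Crisp1, Adam7 and the lipocalins Lcn5 and Lcn8) had a highest level above 1 CPM. Of these, Lcn8, Lcn9, Rnase10, Cst8, Cst11, Ovch2 and Defb15 passed 1 CPM in WT males only. The whole list summed to 1.30 to 15737 CPM in WT, 0.502 to 953 CPM in Y665F and 2.37 to 1659 CPM in Y665H males. The sum was highest in WT male 2 and at 3472 CPM in WT male 3. The highest Y665F sum, in Y665F male 4, was almost all Crisp1 (950 CPM). Epididymis genes and the keratin and junction genes did not go together in every male. Lcn5 and Crisp1 were at 153 and 125 CPM in Y665F male 1, where the keratin and junction genes summed to 148 CPM. In Y665H male 1 they were at 6.89 and 0.198 CPM, beside a keratin and junction sum of 200 CPM. In females 11 of the 12 stayed under 1 CPM, with a summed level of at most 2.16 CPM, and Lcn9, Rnase9, Cst11, Defb15 and Defb20 had no count. In females, genes of urothelium, the lining of the urinary tract, were high in libraries where Krt5 and Cldn4 were high. That list of 6 genes was made after values were seen. Its summed level was 25.1 to 152 CPM in WT, 49.9 to 1339 CPM in Y665F and 35.4 to 94.3 CPM in Y665H females, against 14.3 to 84.7 CPM in males. The uroplakin gene Upk1a was at 473 CPM in Y665F female 3, 63.9 CPM in Y665F female 4, 38.7 CPM in WT female 2 and 23.9 CPM in Y665H female 4. Upk2 had no count in WT female 4 and Y665F female 1, where Cldn4 had none either. In Y665H female 3 Cldn4 had no count and Upk2 had 2. Ivl, a gene of the cell envelope of layered epithelia from the epidermis list, was at 137 CPM in Y665F female 3, 19.9 CPM in Y665F female 4 and 13.2 CPM in WT female 2, and did not exceed 5.88 CPM in the other females or 0.0967 CPM in any male. Smooth muscle genes (4, also listed after values were seen) summed to 11184 CPM in Y665F female 3, and to 251 to 3122 CPM in WT and Y665H females. Mesothelium genes (8 measured) were at 1 CPM or more in every library, with a summed level of 179 to 635 CPM in males and 321 to 782 CPM in females. The part of these tissues in the keratin and junction levels was not tested.

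**Figure D3:**
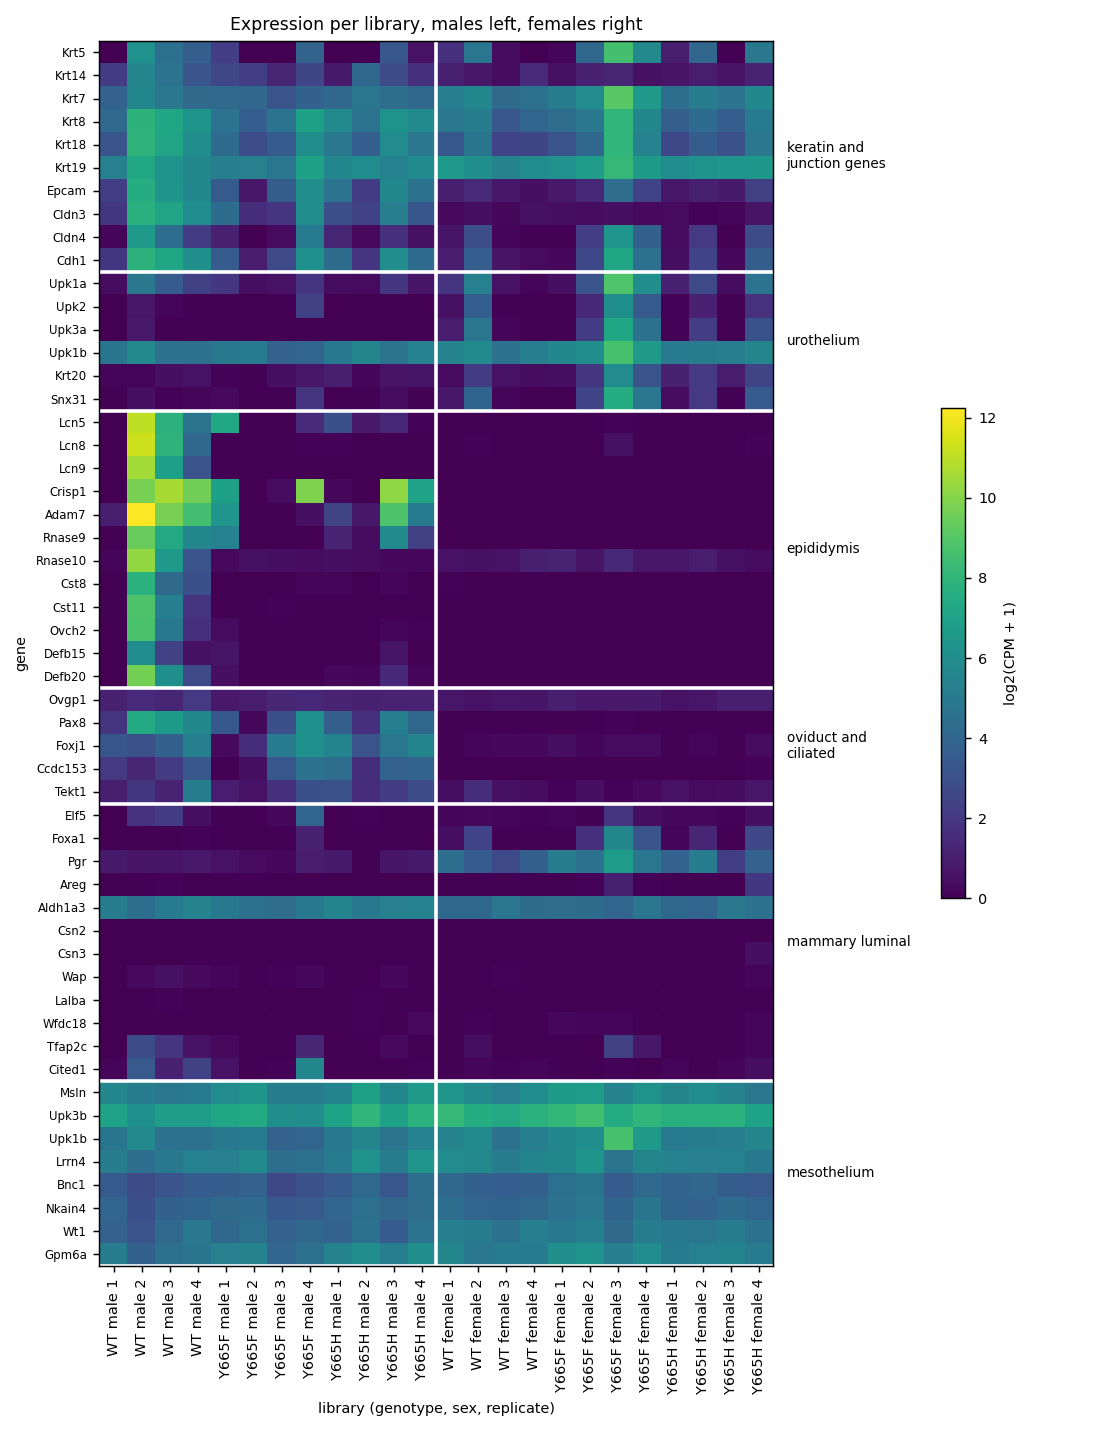
Expression as log2(CPM + 1) (colour) of the 10 genes and of marker genes of 5 tissues (rows) in the 24 libraries (columns, males left and females right). Epididymis genes appear in part of the males only, and the uroplakins of the urothelium list are highest in Y665F female 3. Upk1b is in both the urothelium and the mesothelium list, and Upk3b of the mesothelium list is highest in Y665F female 2.

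In each sex, a contrast of each mutant with WT (4 in all) asked whether either mutation changed the 10 genes. All 10 passed the filter on low counts in every contrast. None was called (edgeR quasi-likelihood test, Benjamini-Hochberg adjusted p under 0.05 over all genes tested) in any of the 4, and for each of the 10 the groups overlapped in all 4, while 22.9% (Y665F females), 13.3% (Y665H females), 8.85% (Y665F males) and 3.60% (Y665H males) of genes had no overlap with WT. The mutant groups of a sex share their WT libraries. In Y665F against WT females, 3.33% of 15642 genes were called. The 10 genes had a median log2 fold change of 2.47, from -0.28 (Krt14) to 3.77 (Krt5), where all tested genes had a median of 0.02. The lowest adjusted p was 0.128, for Krt7 (log2 fold change 2.36, SE 0.82, edgeR). At an unadjusted p under 0.05 there were 3 of the 10, beside 26.3% of all genes. DESeq2 called 0 (13.5% of all genes), and a fit over all 24 libraries called 1, Krt7 (2.98% of all genes). Without Y665F female 3 the median of the 10 was 0.88, Krt7 was at 0.91 (adjusted p = 0.218, edgeR), Krt5 at 1.50 (0.593) and Cldn4 at 1.34 (0.620), and the sign of Cldn3 turned from 0.03 to -0.03. In Y665H against WT females, 3.34% of genes were called, and the median of the 10 was 0.19, from -0.27 (Krt8) to 0.77 (Epcam), with adjusted p of 0.465 to 0.936 (edgeR). None of the 10 had an unadjusted p under 0.05 there (23.8% of all genes), and DESeq2 called 0 (12.5% of all genes).

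In males, all 10 estimates were negative in both mutants. In Y665F against WT males, 0% of 16240 genes were called, and the 10 genes had a median log2 fold change of -2.04, from -2.57 (Krt5) to -0.45 (Krt19), beside -0.04 for all genes. Krt14 had the lowest adjusted p, 0.242 (log2 fold change -2.36, SE 0.77, edgeR), and was the 1 gene of the 10 with an unadjusted p under 0.05 (17.1% of all genes). DESeq2 called 1 of the 10, Krt14 (adjusted p = 0.0239), and 6.60% of all genes. In Y665H against WT males, 0% of 16406 genes were called, and the median of the 10 was -1.76, from -4.78 (Cldn4, SE 1.62) to -0.38 (Krt7), beside -0.06 for all genes, with a lowest adjusted p of 0.402 (edgeR). There, 2 of the 10 (Cldn3 and Cldn4) had an unadjusted p under 0.05 (11.4% of all genes), and DESeq2 called 0 (0.421% of all genes). Without WT male 2 the medians of the 10 were -1.15 in Y665F and -1.01 in Y665H. Krt19 and Cldn4 then turned positive in Y665F (0.12 and 0.10), as did Krt7 in Y665H (0.06), and Cldn4 in Y665H was at -2.92. The epididymis list had a median of -6.10 over 7 tested genes in Y665F and -6.48 over 7 in Y665H males, with none called (-3.08 and -3.07 without WT male 2), and its part in the estimates was not tested.

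A direct contrast of Y665H with Y665F was made in each sex. In Y665H against Y665F females, 17.4% of 15493 genes were called, but none of the 10, with a median log2 fold change of -2.23 and 9 negative estimates. The nearest were Krt7 (-2.30, SE 0.81, adjusted p = 0.0847, edgeR) and Krt8 (-2.15, SE 0.81, adjusted p = 0.101), both called by DESeq2 (adjusted p = 0.0325 and 0.0489), which called 25.2% of all genes. With all 24 libraries in 1 fit, 1 of the 10, Krt7, and 12.6% of all genes were called, while in the fit of the 8 libraries 3 of the 10 had an unadjusted p under 0.05, beside 33.4% of all genes. Without Y665F female 3 the median of the 10 was -0.68 and none was called, beside 8.59% higher and 9.56% lower of all genes. Krt7 was then at -0.85 (adjusted p = 0.163, edgeR) and Krt8 at -0.70 (0.251). In Y665H against Y665F males, 1.03% of genes were called and none of the 10 (lowest adjusted p = 0.336, edgeR), with 0 at an unadjusted p under 0.05 (18.0% of all genes) and 0 called by DESeq2 (6.96% of all genes).

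Between the sexes, some of the 10 genes were called in each genotype. In WT, 3 of the 10 genes were higher in males and none lower, where 7.15% of 15865 genes were higher and 5.95% lower. Cldn3 rose from 0.314 ± 0.123 CPM in WT females to 105 ± 94.0 CPM in WT males (SD, n = 4 each), with a log2 ratio of 8.22 in edgeR (SE 1.28, adjusted p = 0.0109). Epcam rose from 0.982 ± 0.559 to 80.5 ± 77.9 CPM (6.18, SE 1.10, edgeR adjusted p = 0.0158), and Krt14 from 1.00 ± 0.650 to 20.5 ± 19.2 CPM (4.20, SE 0.88, edgeR adjusted p = 0.0243). For these 3 genes all 4 WT males lay above all 4 WT females, as for 18.2% of genes. Krt8, Krt18 and Cdh1 missed the threshold (adjusted p = 0.0703, 0.0637 and 0.0665, edgeR) and were called by DESeq2 (0.00408, 0.00768 and 0.00297), which called 25.3% of all genes. With all 24 libraries in 1 fit, 6 of the 10 and 34.9% of all genes were called. Leaving out any 1 WT female left 0 of the 10 called, and leaving out WT male 1, the lowest WT male for most of the genes, gave 6. The number of all genes called moved too (range given below), so these counts are no result about the 10 alone. Without WT male 2 the 3 genes were still called, at 7.57, 5.33 and 3.42, beside 5.36% higher and 4.54% lower of all genes.

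In Y665F, 2 of the 10 genes were higher in males and 1 lower, where 7.60% of 15622 genes were higher and 7.52% lower. Cldn3 (5.89, SE 1.21, adjusted p = 0.0195, edgeR) and Krt14 (2.10, SE 0.49, adjusted p = 0.0278) were higher in males. Krt7 was lower in males, at 13.5 ± 3.97 CPM against 181 ± 235 CPM (SD, n = 4 each, -3.69, SE 0.86, edgeR adjusted p = 0.0276). None of the 3 overlapped between the sexes, as was so for 11.3% of genes higher and 13.5% lower in males. Without Y665F female 3 all 3 were still called, beside 5.53% higher and 5.99% lower of all genes. Krt7 was then at -2.24 (adjusted p = 0.0137, edgeR). DESeq2 called the same 3 and 25.8% of all genes. With all 24 libraries in 1 fit, Cldn3 and Krt7 were called, Krt14 was not (adjusted p = 0.0897, edgeR), and 14.3% of all genes were. Without Y665F female 4 none was called, and without Y665F male 1, male 2 or female 1 there was 1. The number of all genes called moved as well (range given below), so these counts are no result about the 10 alone.

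In Y665H, 4 of the 10 genes were higher in males and 1 lower, where 15.2% of 15742 genes were higher and 13.7% lower. The higher genes were Cldn3 (5.54, SE 0.86, adjusted p = 0.00188, edgeR), Epcam (3.75, SE 0.80, 0.00819), Krt8 (1.38, SE 0.37, 0.0206) and Krt14 (2.77, SE 0.83, 0.0345). Krt19 was lower in males, at 51.5 ± 9.04 CPM against 76.7 ± 11.5 CPM (SD, n = 4 each, -0.72, SE 0.15, edgeR adjusted p = 0.00782). Of these 5, Cldn3 alone had no overlap between the sexes, where 23.7% of genes lay higher in males without overlap. With all 24 libraries in 1 fit, 3 of the 10 (Cldn3, Epcam and Krt14) and 23.6% of all genes were called, and DESeq2 called 6 of the 10 and 33.7% of all genes. Leaving out Y665H male 3, female 2 or female 3 left 3 of the 10 called. The share of all genes called in those fits is not given here. At least 1 epididymis gene was above 1 CPM in every WT male, in WT male 1 only Adam7 at 1.01 CPM, and in part of the Y665F and Y665H males. Of 5 oviduct and cilia genes, 4 were called higher in males in WT, 2 in Y665F and 4 in Y665H. The shares of all genes were 7.15%, 7.60% and 15.2%. Foxj1 was among them in each genotype, and Pax8 in WT (11.26, SE 1.57, edgeR adjusted p = 0.00753) and Y665H (9.79, SE 1.21, 0.000688). The part of these 2 lists in the sex differences was not tested.

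**Figure D4:**
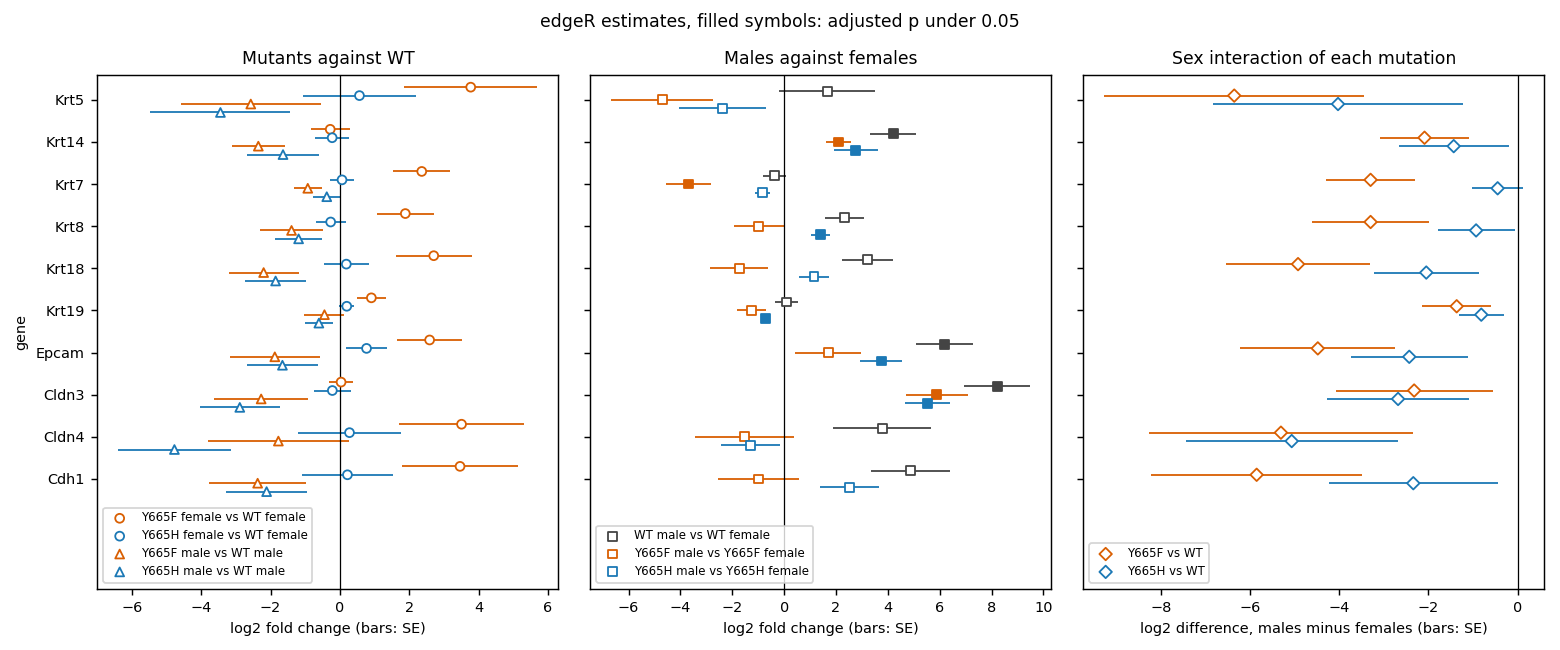
Log2 fold changes (points) with SE (bars) of the 10 genes in the 4 contrasts of a mutant with WT, the 3 contrasts of males with females and the 2 interactions of sex with mutation, from edgeR. Filled symbols, with an adjusted p under 0.05, occur in the male against female panel only (3, 3 and 5 genes).

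Whether the effect of a mutation differed between the sexes was tested as an interaction over 16 libraries. For Y665F, 0% of 16732 genes and none of the 10 were called (edgeR), although all 10 estimates were negative, with a median of -3.89 and a lowest adjusted p of 0.136 (Krt7, -3.30, SE 0.99). Of the 10, 6 had an unadjusted p under 0.05, beside 21.8% of all genes, and DESeq2 called Krt7 and Krt18 (adjusted p = 0.0146 and 0.0289) and 7.14% of all genes. Without WT male 1 edgeR called the same 2, Krt7 and Krt18 (adjusted p = 0.0479 and 0.0456). Fits without 1 library varied widely in how many of all genes they called (range given below). This call is therefore no result about the 2 genes alone. Without both WT male 2 and Y665F female 3 the estimates were -1.42 for Krt7 and -2.38 for Krt18 (adjusted p = 0.294 and 0.394). For Y665H, 0.0119% of 16827 genes and none of the 10 were called (edgeR), the median of the 10 was -2.19 and the lowest adjusted p 0.275, with 0 of the 10 at an unadjusted p under 0.05 (18.3% of all genes) and 0 called by DESeq2 (4.52% of all genes).

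Other genes of the same machinery were read from lists. Of 19 further junction genes, 6 were higher in WT males than in WT females, 0 lower, with a median log2 fold change of 2.79 beside 0.04 for all genes. Of all genes, 7.15% were higher there, as given above. They included the tight junction genes Ocln (4.68, SE 0.94, adjusted p = 0.0215, edgeR), Cldn7 (6.12, SE 1.26, 0.0231) and Tjp3 (3.82, SE 0.86, 0.0289). Without WT male 2 these 3 were the ones called, beside 5.36% higher of all genes, and the median was 2.03. In Y665H the count was 9 higher and 0 lower (median 1.61), beside 15.2% higher of all genes. In Y665F it was 1 higher (7.60% of all genes), Jup (0.82, SE 0.19, 0.0270), and 0 lower, with a median of -0.12 that was 0.69 without Y665F female 3. Of 15 epithelial regulators, 13 were tested in WT and 8 were higher in males (7.15% of all genes), with 0 lower. Among them were Prss8, St14, Elf3 and Ehf, and 4 were higher without WT male 2 (5.36% of all genes). In Y665H 6 were higher and 1, Grhl1, lower (-0.93, SE 0.12, 0.000990), beside 15.2% higher and 13.7% lower of all genes. In Y665F 1 of 14 tested was lower in males, Grhl3 (-6.76, SE 1.84, 0.0430, edgeR), beside 7.52% lower of all genes. Grhl3, a Grainyhead factor of barrier epithelia, did not exceed 0.463 CPM in any male and reached 68.0 CPM in Y665F female 3. Without that library Grhl3 was not called (-4.31, adjusted p = 0.0659, edgeR). In the 4 contrasts of a mutant with WT, none of the 19 junction genes was called. Their medians were 2.05 in Y665F females, -0.11 in Y665H females (18 tested), -1.54 in Y665F males and -1.49 in Y665H males. Without Y665F female 3 the first was 0.57, and without WT male 2 the male medians were -0.64 and -0.54. Of the regulators, Grhl1 alone was called there, in Y665H against WT females (0.50, SE 0.11, adjusted p = 0.0476, edgeR).

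The genes whose pattern was most like that of each pair were ranked by Pearson r of log2(CPM + 1) over the 12 libraries of a sex, as a description without a test, since the points share 1 high library. In males (15111 genes ranked), Basp1 (r = 0.986), Slco4a1, Ears2, Epn3 and Ndrg4 were most like the mean of Krt5 and Krt14. Epb4.1l4b (r = 0.994), Mfap3l, Prss8, Sim1 and 2900092D14Rik were most like the mean of Krt8 and Krt18. In females (13947 ranked), Aqp3 (r = 0.983), Prom2, Tmprss2, Fat2 and Sprr1a were most like Krt5 and Krt14, and Rab27b (r = 0.988), Sfn, Plekhh1, St14 and Esrp2 most like Krt8 and Krt18. All 10 male genes were highest in WT male 2 and all 10 female genes in Y665F female 3.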

How the data were processed

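Adipose RNA of 24 libraries was measured by total RNA-seq with ribosomal RNA removal and a stranded kit, per the labels' protocols. The extract protocol names 2 library kits, and which kit each library had is not settled here. The authors deposited 1 table per library with unnormalized read counts by gene symbol, and groups were taken from the titles. The submitters' processing notes name FastQC 0.11.9, Trimmomatic 0.36, STAR, SAMtools 1.9, Picard 2.9.2, HTSeq 0.9.1 and the build mm10. The annotation, the strand setting and the treatment of reads that match more than 1 gene are not given in the sources used here. The 5 entries that name no gene held 24.8 to 39.7% of all counts and were left out. No 2 libraries of a group were alike within sampling noise (chi-square per degree of freedom at least 16.4).

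Each contrast was fitted over all genes with edgeR 4.0.16 (R 4.3.3, TMM scaling, filterByExpr, quasi-likelihood test, Benjamini-Hochberg) on the 8 libraries of its 2 groups, or 16 for an interaction, and tested on simulated data. Alternatives were RLE scaling, library totals, no filter, DESeq2 1.42.0, all 24 libraries in 1 fit, a replicate block and leaving out each library. Leaving out WT male 2 and Y665F female 3 together was added after the values were seen. Under library totals the median log2 fold change of all genes moved by over 0.1 in 5 contrasts, for example from 0.02 to 0.15 in Y665F against WT females and from 0.04 to 0.22 in WT males against females, so changes are relative to TMM. CPM were computed from the counts, and log2(CPM + 1) uses a pseudocount of 1.

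The 10 genes and the lists were chosen with earlier results of these data known. The naming rule takes all 10 genes, up to 4 called genes per list and contrast, other keratins with a mean of at least 1 CPM in a group, and the 5 genes most like each keratin pair in each sex. Marker genes outside this rule were chosen after their values were seen. Seminal vesicle genes (6) summed to at most 1.73 CPM, and of 10 epidermis genes 8 were under 1 CPM in every male and 7 in every female library (in females all but Krt10, Sbsn and Ivl). Skeletal muscle genes (8) summed to 14.5 to 1956 CPM. The oviduct and cilia list (5 genes) had a summed level of 4.12 to 191 CPM in males, while no female library exceeded 2.70 CPM. Basal layer genes (10) summed to 136 to 443 CPM in males and 125 to 1149 CPM in females, where Oxtr alone was at 1081 CPM in the highest library, Y665H female 2, and the other 9 to 60.8 to 318 and 43.7 to 777 CPM, and mammary luminal genes (12) to 20.5 to 97.8 and 29.9 to 176 CPM.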

Additional observations from a re-analysis of the deposited data

Results flagged for a closer look

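In 18 of 60 checks (10 genes in 6 groups of 4 libraries), 1 library lay far from the other 3, its gap to the nearest, as a share of the group's whole range, being above Dixon's 95% critical value for 4 samples. Chance flags about 1 in 20, or 3 of 60, and the genes are not independent of each other. Y665F female 3 accounted for 7: Krt5 at 393 CPM (next library 53.5), Krt7 at 531 CPM, Krt8 at 268 CPM, Krt18 at 265 CPM, Krt19 at 283 CPM, Cldn4 at 83.0 CPM and Cdh1 at 145 CPM. Y665F male 4 accounted for 5, with Krt8 at 123 CPM, Krt19 at 127 CPM, Epcam at 64.9 CPM, Cldn4 at 33.2 CPM and Cdh1 at 69.4 CPM. That library also had the highest summed smooth muscle level among males, 5455 CPM. WT female 2 accounted for 3, with Krt5 at 27.1 CPM, Cldn4 at 6.79 CPM and Cdh1 at 11.8 CPM. Y665H male 3 stood apart for Krt5 at 8.89 CPM and Cldn3 at 36.5 CPM, and Y665H female 4 for Epcam at 4.06 CPM. WT male 2 was in no such check past the limit, although it was the highest male library for all 10 genes, because WT males 3 and 4 were high as well.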

How the results depend on the processing

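Counts of the 10 genes called in edgeR moved under these settings. With all 24 libraries in 1 fit they were 1 (from 0) in Y665F against WT females, 1 (from 0) in Y665H against Y665F females, 6 (from 3) in WT, 2 (from 3) in Y665F and 3 (from 5) in Y665H males against females. With DESeq2 they were 2 (from 0) in Y665H against Y665F females, 1 (from 0) in Y665F against WT males, 6 (from 3) in WT and 6 (from 5) in Y665H males against females and 2 (from 0) in the Y665F interaction. Leaving out 1 library gave 0 to 6 in WT, 0 to 3 in Y665F and 3 to 5 in Y665H males against females, and 0 to 2 in the Y665F interaction. With the replicate number as a block, the Y665F males against females had 0 (from 3). Library numbers did not pair the samples: in each contrast at least 1 correlation of deviations between same-numbered libraries was 0.1 or lower, and 0 to 3 of 4 libraries correlated best with their own number.

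Signs turned without WT male 2 and Y665F female 3 for Cldn3 in Y665F females (-0.0275), Krt19 (0.12) and Cldn4 (0.10) in Y665F males and Krt7 in Y665H males (0.0618), all against WT, and with the replicate block for Cdh1 in Y665H females (-0.0261). Leaving out 1 library turned signs within these ranges of log2 fold change. In Y665F against WT females they were Krt14 -0.58 to 0.19 and Cldn3 -0.15 to 0.27. In Y665F against WT males they were Krt19 -1.09 to 0.12 and Cldn4 -5.84 to 0.10, and in Y665H males Krt7 -0.59 to 0.0618. In Y665H against WT females they were Krt5 -0.47 to 3.76, Krt14 -0.53 to 0.25, Krt7 -0.23 to 0.39, Krt8 -0.62 to 0.0840, Krt18 -0.50 to 1.04, Epcam -0.12 to 1.21, Cldn3 -0.78 to 0.0797, Cldn4 -0.74 to 3.14 and Cdh1 -1.02 to 2.78. The cause was not tested.

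Of all genes, the counts called by edgeR and by DESeq2 were 521 and 2030 (Y665F) and 516 and 1782 (Y665H) in mutant against WT females, 0 and 1036 (Y665F) and 0 and 64 (Y665H) in mutant against WT males, and 164 and 1078 in Y665H against Y665F males. They were 2079 and 3920 in WT and 2361 and 4001 in Y665F males against females, and 0 and 1152 (Y665F) and 2 and 689 (Y665H) in the interactions. All 24 libraries in 1 fit gave 250, 2261, 203, 400, 5987, 1 and 201 genes in Y665H against WT females, Y665F and Y665H against WT males, Y665H against Y665F males, WT males against females and the Y665F and Y665H interactions. The block gave 32, 1583, 0, 825, 1173 and 1 genes in Y665H against WT females, Y665H against Y665F females (from 2689), Y665H against Y665F males, WT and Y665F males against females and the Y665H interaction. Library totals gave 1164 in Y665F against WT females and 72 in the Y665H interaction. Leaving out both libraries gave 2 in the Y665F interaction. Leaving out 1 library gave 67 to 747 and 20 to 1269 in Y665F and Y665H against WT females, 1554 to 2839 in Y665H against Y665F females, 0 to 570 and 0 to 1 in Y665F and Y665H against WT males, 10 to 220 in Y665H against Y665F males, 251 to 5076 and 787 to 2180 in WT and Y665F males against females, and 0 to 1686 and 0 to 1844 in the interactions.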

Other observations

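Beyond the 6 keratins described, 42 further keratin genes were in the files, of which 10 reached a mean of 1 CPM in some group and 32 did not. Krt15, a keratin of basal cells, was highest in Y665F female 3 (373 CPM) and, in males, in WT male 2 (22.8 CPM). Krt4, a keratin of wet layered epithelia, reached 54.5 CPM and Krt20, a keratin of urothelial surface cells and gut, reached 58.7 CPM in Y665F female 3, while their medians over the 12 females were 0.107 and 2.02 CPM. Krt23 reached 57.0 CPM in WT male 2 with a male median of 0.0165 CPM, and Krt32 reached 10.4 CPM in WT male 3 and had no count in any female. Krt23 was called higher in Y665H than WT females (log2 fold change 1.42, adjusted p = 0.0470, edgeR), beside 3.34% of all genes. Its female levels were 0.285 to 3.33 CPM. In males it was lower in Y665F (-4.52, edgeR adjusted p = 0.0270) and Y665H (-5.58, 0.000498), beside 7.52% and 13.7% of all genes. In Y665H against Y665F females, Krt80 was lower (-1.10, edgeR adjusted p = 0.00541) and Krt36 higher (1.15, 0.0293), beside 17.4% called. Other calls between the sexes are not listed. Krt10, Krt79, Krt80 and Krt222 were at 1 CPM or more in all 24 libraries. Krt78 reached 7.07 CPM in Y665F female 3.

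Krt5 and Krt15 did not keep 1 ratio among females. There were 1.05 counts of Krt5 for each count of Krt15 in Y665F female 3 and 1.03 in Y665F female 4, but 36.6 in Y665F female 2 and 112 in Y665H female 2, where Krt5 was at 16.2 and 15.4 CPM. Pax8, a transcription factor gene of the genital ducts among other organs, reached 178 CPM in males, where its lowest level was 0.201 CPM, and did not exceed 0.103 CPM in any female. In males 1 to 4, Pax8 was 2.62, 178, 102 and 51.8 CPM in WT and 9.27, 0.201, 7.01 and 68.5 CPM in Y665F. In Y665H males it was 12.1, 2.21, 38.5 and 16.1 CPM. The relation of Pax8 to the Epcam levels given above was not tested. Foxj1, which drives the making of motile cilia, spanned 0.225 to 69.9 CPM in males, with its highest level in Y665F male 4, and stayed at or under 0.366 CPM in every female.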
